A study of Mus musculus with 2 samples.

Results

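The interferon-inducible GTPases were read on 2 one-colour microarrays of mouse epiblast stem cells. The family comprises 10 genes: the guanylate-binding proteins Gbp2, Gbp2b, Gbp3, Gbp5, Gbp6 and Gbp7, and the immunity-related GTPases Irgm1, Irgm2, Igtp and Iigp1. The arrays name 34650 genes in all, and 16 of the 55681 probes for transcripts carry a name of the family. The 10 genes were chosen by the measured difference between these same arrays together with their family, so the differences below are a description and were not tested. Every probe of every gene was kept.

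EpiSC, epiblast stem cells, came from E14Tg2A cells treated directly with FGF2 at 12 ng/mL together with Activin A at 20 ng/mL. ELA-EpiSC received both factors at these doses after an aggregate stage: E14Tg2A cells without serum and LIF had first formed floating Epiblast-Like Aggregates (ELA). E14Tg2A is a single mouse embryonic stem cell line, grown on gelatin in serum and LIF beforehand, so both groups share 1 genotype, and both were kept in chemically defined medium. Each group is 1 array, hybridized with RNA pooled from 3 independent sets of experiments, so a difference between the arrays has no replicate check and no p-value. The groups rest on the sample titles, with which the descriptions and the molecule field (total RNA for both) agree. The source fields differ from them: both name undifferentiated cells, and that of EpiSC names an Argonaute immunoprecipitate where that of ELA-EpiSC names total RNA. If the source fields were right, the arrays would hold different RNA fractions and each difference below would compare those instead. The study, however, lists these arrays as profiling of ELA-EpiSC, and its Argonaute immunoprecipitates as a separate data set. Levels are log2 normalized intensity and differences are log2 ELA-EpiSC minus EpiSC. Levels of different probes were set against each other only in choosing a gene's brightest probe and in the lists of cell type markers, which were summed. A probe is called detected where the scanner software marked its spots as well above background.

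Interferons are secreted proteins that bind receptors at the cell surface. The kinases attached to these receptors activate STAT factors, which, together with interferon regulatory factors (IRF) such as Irf1, bind short promoter elements of a large set of target genes. Among the most strongly induced of these targets in mouse cells are the GTPases that defend the cytoplasm against bacteria and protozoa. Guanylate-binding proteins are large GTPases of the dynamin superfamily that assemble on the vacuoles of pathogens and on bacteria in the cytosol. Immunity-related GTPases are smaller. Irgm1, Irgm2 and Igtp are the regulatory members, which sit on the cell's own membranes and hold the effector members, such as Iigp1, in the inactive state.

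The promoters are shown first because they carry the elements by which the family is known. Of the 10 genes, 8 matched the RefSeq promoter table of assembly GRCm38.p6, with 9 windows of 250 bases before and 50 bases after the start, while Gbp6 and Iigp1 did not. A script searched both strands for the core of the interferon-stimulated response element, which is GAAA, then any 2 bases, then GAAA (on the other strand TTTC, any 2 bases, TTTC). These are letters bound by IRF and STAT complexes of the type I response. These letters were in 8 of the 9 windows and in at least 1 window of each of the 8 genes, against 3.44% of all 32851 windows in the table. The window without them was the second of the 2 windows of Gbp3. In the sequences that follow, read 5′ to 3′ in the direction of the gene, capitals mark every match to the element, and the bases around the match nearest to the start are given.
Gbp2, chr3:142620584-142620633, plus strand: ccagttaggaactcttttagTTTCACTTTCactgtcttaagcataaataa
Gbp2b, chr3:142594690-142594739, plus strand: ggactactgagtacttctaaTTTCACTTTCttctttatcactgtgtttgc
Gbp3, chr3:142559985-142560034, plus strand: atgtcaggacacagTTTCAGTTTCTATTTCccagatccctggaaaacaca
Gbp7, chr3:142530263-142530312, plus strand: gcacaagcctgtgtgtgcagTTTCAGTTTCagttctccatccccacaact
Gbp5, chr3:142496749-142496798, plus strand: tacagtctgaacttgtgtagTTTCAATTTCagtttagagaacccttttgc
Irgm1, chr11:48871421-48871464, minus strand: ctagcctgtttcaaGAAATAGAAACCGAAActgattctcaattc
Irgm2, chr11:58214893-58214942, plus strand: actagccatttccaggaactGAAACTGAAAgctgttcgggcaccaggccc
Igtp, chr11:58199502-58199551, plus strand: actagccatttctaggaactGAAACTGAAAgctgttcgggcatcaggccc

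The element nearest to the start ended 14 bases before it in Irgm1 and 24 in Igtp, and 29 in Gbp3, 43 in Gbp7, 49 in Gbp2 and 54 in Irgm2. In Gbp2b it lay farther away, at 127 bases, and in Gbp5 at 155. Gbp3 and Irgm1 each held 2 overlapping matches. Igtp and Irgm2, neighbours on chromosome 11, shared 48 of the 50 bases printed above, and 72.8% of aligned positions over their whole windows, while the element of Irgm2 stood 30 bases farther from its start. A second search used TTCNNNGAA, the palindromic core of the gamma-activated site, a promoter element of the response to interferon gamma. It was in 4 of the 9 windows and in 4 of the 8 genes, namely Gbp5, Gbp7, Irgm2 and Igtp. Over the whole promoter table it was in 8.30% of windows and 9.55% of genes. Gbp5 and Gbp7 shared the match TTCTCAGAA, while Igtp had TTCTAGGAA and Irgm2 had TTCCAGGAA, each 2 bases from its response element and not overlapping it. A match is a description of letters, and the lack of one says only that the letters are not in this window.

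The guanylate-binding proteins of chromosome 3 held the largest differences of the family. Gbp2, which is recruited to the vacuole of Toxoplasma and to cytosolic bacteria, read 9.62 in EpiSC against 13.71 in ELA-EpiSC, that is 4.09 or 17.1-fold higher in the latter. Its probe lies at chr3:142300719-142300778 of mm9, the assembly of the array's coordinates. Gbp2b, the gene long called Gbp1 in the mouse, has 2 probes that start at 142281466 and 142281897 of the same chromosome. The first read 8.82 in EpiSC and 12.86 in ELA-EpiSC, and the second 8.33 and 12.36. Their differences of 4.04 and 4.03, or 16.4-fold and 16.3-fold, were apart by less than the spread between replicate spots. That spread, the only error computed here, was a root mean square SD of 0.098 for a log2 difference. It was taken over 399 probes printed on 10 spots each, and it covers neither labelling nor culture. The differences of Gbp2 and Gbp2b were apart by less than that spread too.

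Gbp3, another vacuole-directed member, was dim in EpiSC at 7.07 and read 10.12 in ELA-EpiSC, which makes 3.05 or 8.28-fold. The size for Gbp3 depends on how background is treated, and it ran from 2.97 to 3.86 over the alternatives. Gbp7 was detected in ELA-EpiSC at 7.91 but was not well above background in EpiSC (6.13), so it was at least 3.43-fold higher in ELA-EpiSC. On the log2 scale the difference of 1.78 ran from 1.56 to 4.90 over the alternatives, so the bound holds for the values used here. It compares the 2 levels as measured, because the EpiSC value exceeded the lowest detected signal of that array, 5.89. A second Gbp7 probe, designed on another transcript record, was not well above background in EpiSC (5.99) or in ELA-EpiSC (5.94).

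Gbp5 and Gbp6 differed from the other guanylate-binding proteins. Gbp5, known for its part in inflammasome assembly, read 9.57 in EpiSC against 9.81 in ELA-EpiSC by its brighter probe, which was designed on an alternatively spliced transcript. The difference of 0.25 was larger than the spread between spots. The probe for the RefSeq transcript of Gbp5 was dim on both arrays, at 6.36 and 6.45, and its difference of 0.09 was within that spread. Gbp6, whose probe lies at chr5:105700056-105700115, was the single member with a lower level in ELA-EpiSC, 8.98 against 9.26 in EpiSC. Its difference of -0.29 turned to 0.38 when the arrays were scaled to the spike-in RNA and to 0.23 when all detected probes were averaged. The second Gbp6 probe was not well above background in EpiSC (6.19) and also lists a transcript of the neighbouring gene Gbp10. It read 6.94 in ELA-EpiSC, at least 1.67-fold higher by the values used here. Its log2 difference of 0.74 ran from 0.48 to 2.68 over the alternatives. Both genes thus have probes whose readings were not alike, and the direction of Gbp6 rests on which of them is read.

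**Figure D1:**
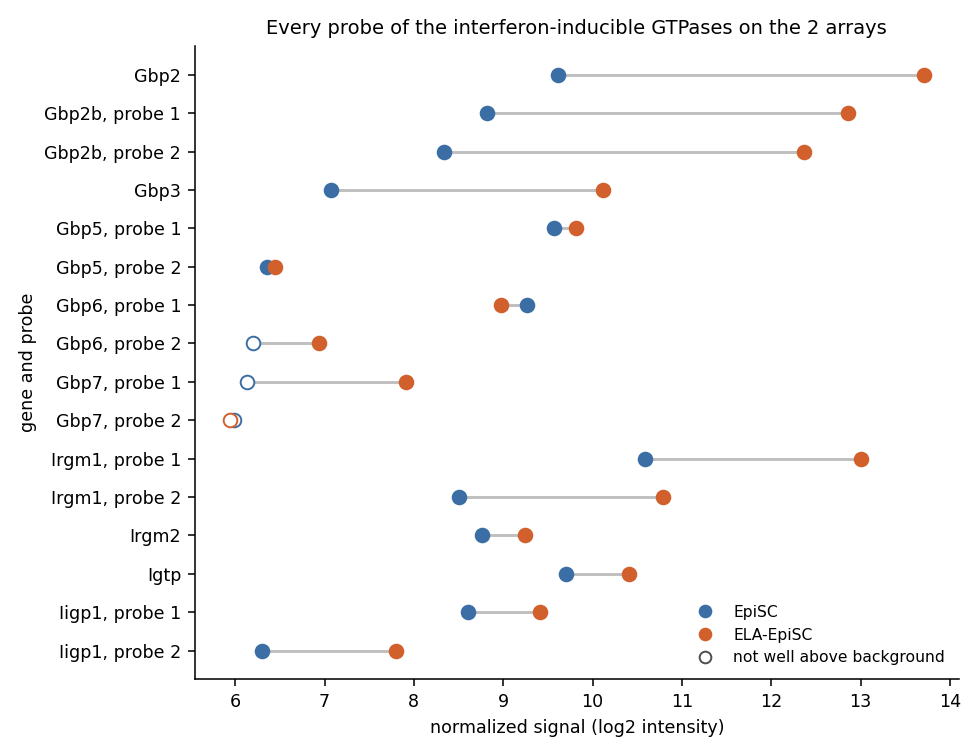
Normalized signal (log2 intensity) of each of the 16 probes of the family in EpiSC (blue) and ELA-EpiSC (orange), joined by a line, with open circles for readings not well above background. The longest lines are those of Gbp2 (4.09), Gbp2b (4.04 and 4.03), Gbp3 (3.05) and Irgm1 (2.41 and 2.28), while both Gbp5 probes and the first Gbp6 probe have short ones.

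Of the immunity-related GTPases, Irgm1 had the largest difference. Irgm1 is a regulatory member that mice need to resist mycobacteria, and its probes lie at chr11:48679069-48679128 and chr11:48679632-48679691. The first probe read 10.59 in EpiSC and 13.00 in ELA-EpiSC, and the second 8.51 and 10.79. The differences of 2.41 and 2.28, or 5.33-fold and 4.84-fold, have the same direction. They were apart by more than the spot SD of one difference. A gap between 2 differences has a larger SD than that, so it is not read as a disagreement.

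The other regulatory members, Igtp and Irgm2, had smaller differences. Igtp, also called Irgm3, was the member measured most precisely, because its probe (chr11:58020927-58020986) was printed on 10 spots of each array. The 10 EpiSC spots ran from 9.53 to 10.03 with a mean of 9.70, and the 10 ELA-EpiSC spots from 10.14 to 10.88 with a mean of 10.41. The spots of the 2 arrays did not overlap. The difference was 0.71 ± 0.11 (SD over 10 spot pairs), with single pairs from 0.55 to 0.85, or 1.64-fold. These spots are technical repeats within 1 array and not replicates of the cultures. Irgm2, whose single probe starts 15.2 kb from that of Igtp, read 8.76 in EpiSC against 9.24 in ELA-EpiSC, higher by 0.48 or 1.40-fold. These 2 genes, which share the printed promoter stretch but for 2 bases, were thus both higher in ELA-EpiSC by less than 1.

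Iigp1, an effector that loads onto the vacuole of Toxoplasma and is encoded on chromosome 18, has 2 probes of unequal size of difference. The brighter read 8.60 in EpiSC against 9.41 in ELA-EpiSC, higher by 0.81 or 1.75-fold. The dimmer read 6.31 against 7.80, higher by 2.82-fold, at a mean level below the minimum used for counts. The brighter probe shared a run of 16 bases with 10 promoter windows of the RefSeq table, whereas the median over all 55681 probes was 0. The dimmer one had 55 of 60 aligned bases in common with the probe of its relative Iigp1b, itself not well above background in EpiSC or in ELA-EpiSC. For the other 14 probes the best match to a probe of another name had at most 17 identical bases. The 2 probes of Iigp1 agree in direction and leave its size unsettled.

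Over the family, 14 of the 16 probes had a difference above 0, 13 were well above background on both arrays, 2 on the ELA-EpiSC array alone and 1 on neither. No spot of these probes was saturated or marked as an outlier. Counts used a difference of at least 1 among genes with a detected probe and a mean log2 of at least 7.5, with each gene read by its brightest detected probe. By that rule 9 of the 10 genes passed the level, Gbp7 being too dim, and 4 of the 9 were higher in ELA-EpiSC by at least 1, namely Gbp2, Gbp2b, Gbp3 and Irgm1. Gbp3, at 7.07 in EpiSC, passed the level only through its ELA-EpiSC reading. Over all 16649 genes that passed the level, 4.54% (756) were higher in ELA-EpiSC by as much and 4.46% (742) were higher in EpiSC by as much. None of the 10 genes was higher in EpiSC by 1. Of the 11 probes of the family that passed the level, 6 were higher by at least 1, beside 4.21% (922) of 21906 probes. Since the family was chosen on this contrast, nothing is read from these shares.

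The median difference was 0.81 over the 9 genes and 1.29 over all 10, the latter with Gbp7 at its bound, beside 0.0014 over all genes that passed the level. For the 6 guanylate-binding proteins, Gbp7 again at its bound, it was 2.41, with values from -0.29 to 4.09, and for the 4 immunity-related GTPases 0.76, with values from 0.48 to 2.41. In the order of all 16649 genes from the highest difference downward, Gbp2 was at place 2, Gbp2b at 4, Gbp3 at 24 and Irgm1 at 76. The central 95% of all genes lay between -1.32 and 1.37, and Gbp5, Gbp6, Irgm2, Igtp and Iigp1 were within it. Among the 9 members that passed the level, the order of differences was Gbp2, Gbp2b, Gbp3, Irgm1, Iigp1, Igtp, Irgm2, Gbp5 and Gbp6. Gbp7, known by a bound, has no fixed place in it, and lay above Irgm1 in 5 of 13 ways of computing the values. Gbp2b lay above Gbp2 in 3 of the 13, and Gbp6 above Gbp5 in 1. In the order given, Gbp2 and Gbp2b, and Iigp1 and Igtp, were apart by less than the spot SD.

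**Figure D2:**
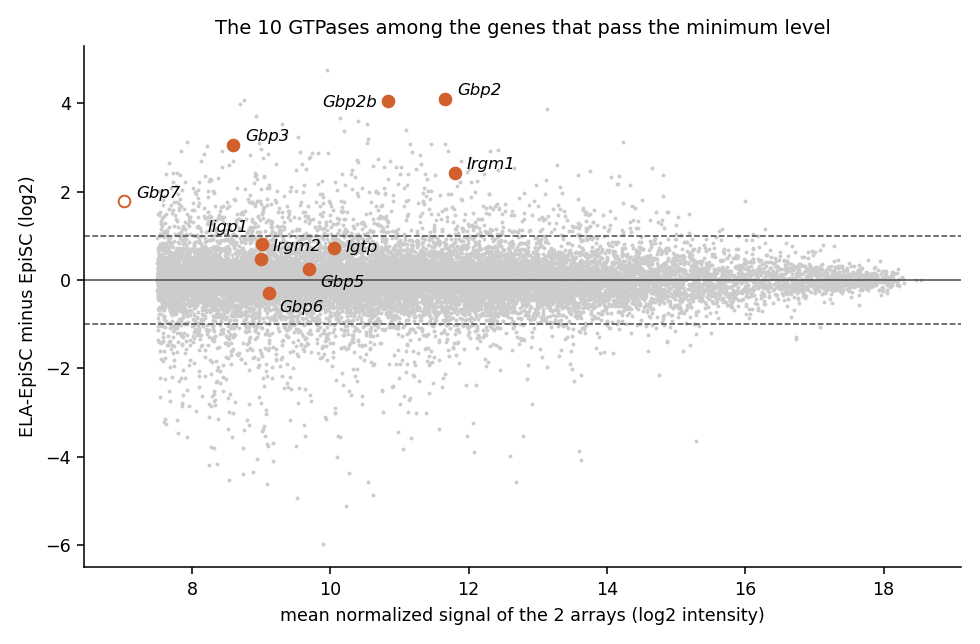
Log2 difference, ELA-EpiSC minus EpiSC, against the mean normalized signal of the 2 arrays (log2 intensity) for the 16649 genes that passed the level (grey) and the 10 GTPases (orange; Gbp7, open, is below the level and detected on 1 array). Dashed lines stand at differences of 1 and -1, and Gbp2, Gbp2b, Gbp3 and Irgm1 lie above the upper line.

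The size of the difference varied along the chromosome 3 cluster. From the Gbp5 probe, the probes of Gbp7, Gbp3, Gbp2b and Gbp2 lie 28.0, 54.6, 100.0 and 119 kb toward higher coordinates. The differences in that order were 0.25 for Gbp5, 1.78 for Gbp7 (a bound), 3.05 for Gbp3, 4.04 for Gbp2b and 4.09 for Gbp2. This rise with position depends on how background is treated. With processed signals scaled to the 75th percentile, the differences in the same order were 0.17, 4.90, 3.86, 4.22 and 4.04. A probe with no gene name, singled out for its place after its values were seen, lies 93.0 kb from the Gbp5 probe, between Gbp3 and Gbp2b. It read 7.54 in EpiSC against 11.07 in ELA-EpiSC, higher by 3.53. The 4 nearest genes or unnamed probes on either side of the cluster, 8 in all, had absolute differences of at most 0.61. On the far side of Gbp2 these included Ccbl2 at -0.37 and Gtf2b, a general transcription factor, at -0.06. The large differences on this stretch were thus inside the cluster, and the 5 genes within it were not alike.

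**Figure D3:**
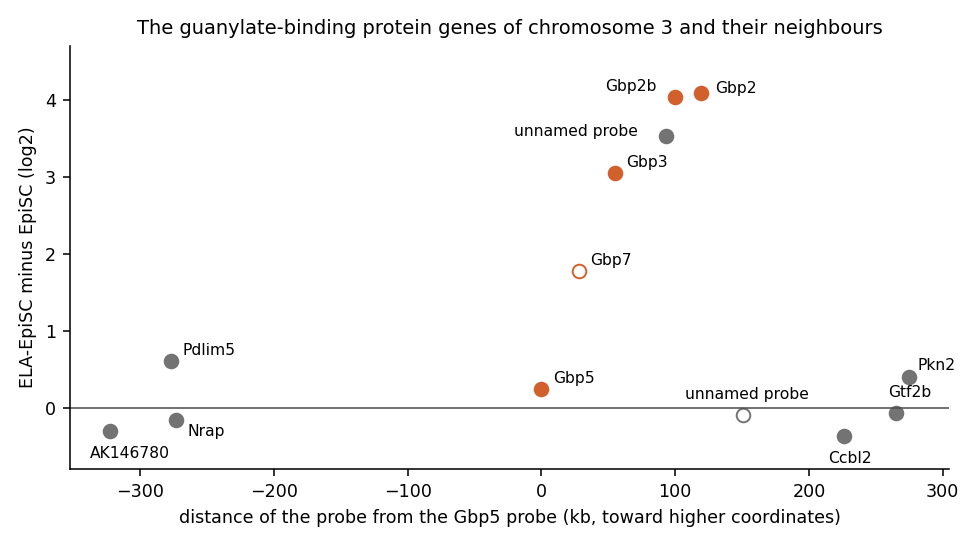
Log2 difference, ELA-EpiSC minus EpiSC, against the distance of each probe from that of Gbp5 in kb, for the 5 guanylate-binding protein genes of chromosome 3 (orange) and their neighbours (grey), with open circles where a reading was not well above background on at least 1 array. Values go from 0.25 at Gbp5 to 4.09 at Gbp2, an order that depends on how background is treated. The neighbours outside the cluster lie between -0.37 and 0.61.

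The chromosome 5 cluster around Gbp6 was mixed. Gbp4 and Gbp9, relatives of Gbp6 on the lower-coordinate side, read 7.01 and 7.21 in EpiSC against 9.37 and 8.80 in ELA-EpiSC, differences of 2.36 and 1.59. Gbp10, 55.3 kb from Gbp6, had a difference of 0.12, and Gbp11, 52.1 kb away on the other side, one of 1.15. Gbp6 itself was at -0.29 by its brighter probe and at 0.23 with both probes averaged. On chromosome 11, the neighbours of Irgm1 included Trim7 at 0.33 and the relative Gm5431 at 0.05, beside 2.41 for Irgm1 itself. Those of Igtp included Mrpl22 at -0.33 and the relative Gm12250 at 0.07. None of the 4 neighbours on either side of Irgm1, or of the Igtp and Irgm2 pair, reached 1.

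Set beside the promoter letters, the family divided as follows. The 4 genes with a gamma-activated site in the window had differences of 0.25 (Gbp5), 0.48 (Irgm2), 0.71 (Igtp) and 1.78 (Gbp7, a bound). The 4 genes in whose windows these letters were not found had differences of 2.41 (Irgm1), 3.05 (Gbp3), 4.04 (Gbp2b) and 4.09 (Gbp2). The response element was in both sets. The sets overlap where background is treated otherwise, since Gbp7 lay above Irgm1 in 5 of 13 ways of computing the values and above Gbp2 in 1. This grouping was seen after the values, on 8 genes that share clusters, and is a description with no test.

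The further members of both families on the array were listed by name, with earlier results of these data known. Of 5 further guanylate-binding proteins, 4 passed the level and 3 were higher in ELA-EpiSC by at least 1, namely Gbp4, Gbp9 and Gbp11. These read 7.01, 7.21 and 7.29 in EpiSC, below the minimum of 7.5, so they passed it only through their ELA-EpiSC level. Over all genes that passed the level, 4.54% were higher by at least 1, and nothing is read from the counts here. Gbp8 was dim on both arrays (6.27 and 6.25). Of 12 further immunity-related GTPases, 4 passed the level and 2 were higher by at least 1. These were Gm4951, at 6.67 and 8.48, and Tgtp2, an effector, at 7.24 and 8.97, both likewise below the minimum in EpiSC. The second probe of Tgtp2 had a difference of 0.07. Irgq, a distant member, had a difference of -0.18. Of the related large GTPases, Mx2, an antiviral dynamin-like protein, read 6.85 in EpiSC and had a difference of 1.69. Mx1 was not well above background in EpiSC or in ELA-EpiSC. The 9 constitutive dynamin-family GTPases that passed the level, which include the atlastins and mitofusins, had a median of 0.43 and none past 1.

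The signals upstream of the family were read next. Of 16 interferon genes on the array, 2 passed the level and none differed by 1. Ifng, the main inducer of these GTPases, was not well above background in EpiSC (6.01) or ELA-EpiSC (5.95), and neither was Ifnb1 (5.92 and 5.93). Of the 9 receptor subunits and kinases, Jak2, the kinase bound to the interferon gamma receptor, alone passed 1, at 9.84 and 11.12, a difference of 1.28. Both subunits of that receptor were detected, with differences of 0.60 for Ifngr1 and 0.22 for Ifngr2. The kinase Jak1 differed by 0.04.

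Among 10 STAT and IRF factors, 6 passed the level and 1 was higher by at least 1. That was Irf1, the factor through which interferon gamma reaches many of the GTPase promoters, which read 12.39 in EpiSC against 14.78 in ELA-EpiSC, higher by 2.38. The second probe of Irf1 had a difference of 0.18. Stat2 and Irf9, members of the complex that type I interferon activates, had differences of -0.25 and -0.29. Of 8 genes listed as feedback inhibitors, 2 were higher by at least 1, the ubiquitin-like Isg15 at 2.92 and the JAK inhibitor Socs1 at 1.53. Whether Isg15 acts as an inhibitor in these cells was not tested. Isg15 is also counted among the antiviral genes below. Usp18, the isopeptidase that removes Isg15, had a difference of -0.83.

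Other targets of interferon gave a background for the family. Of 29 antiviral genes, 14 passed the level, 7 were higher by at least 1 and none lower by as much, with a median of 1.03. The largest were Oasl2 at 3.30, Isg15 at 2.92, Rtp4 at 2.36 and Ifitm1 at 2.15. Of the 14, 12 were above 0, while Ifitm2 was at -0.40 and Oas1b at -0.20. Over all genes that passed the level, 4.54% were higher by at least 1.  Of 14 genes of class I antigen presentation, 12 passed the level and 8 were higher by at least 1, with a median of 1.25. These were led by the immunoproteasome subunit Psmb8 (8.98 against 12.08), followed by the peptide transporter Tap2 at 2.56, Tapbp at 1.83 and Psmb10 at 1.53. Of 5 class II genes that passed the level, 2 were higher by at least 1, Cd74 at 1.48 and H2-Eb1 at 1.09. H2-Eb1, at 7.03 in EpiSC, passed the level only through its ELA-EpiSC reading. The other 3 were H2-DMa at -0.03, H2-Ab1 at -0.54 and H2-DMb1 at -0.76, and the median was -0.03. The letters of the response element were in 4 of 8 promoter windows of the further immunity-related GTPases. They were in 15 of 28 antiviral windows, 3 of 15 class I windows and 0 of 13 windows of the constitutive dynamin-family GTPases. The letters of the gamma-activated site were in 3 of 8, 7 of 28, 1 of 15 and 0 of 13 windows in that order. Of the 10 genes of the autophagy conjugation machinery, which places the family on membranes, 0 passed a difference of 1 in either direction, and the median was -0.11.

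**Figure D4:**
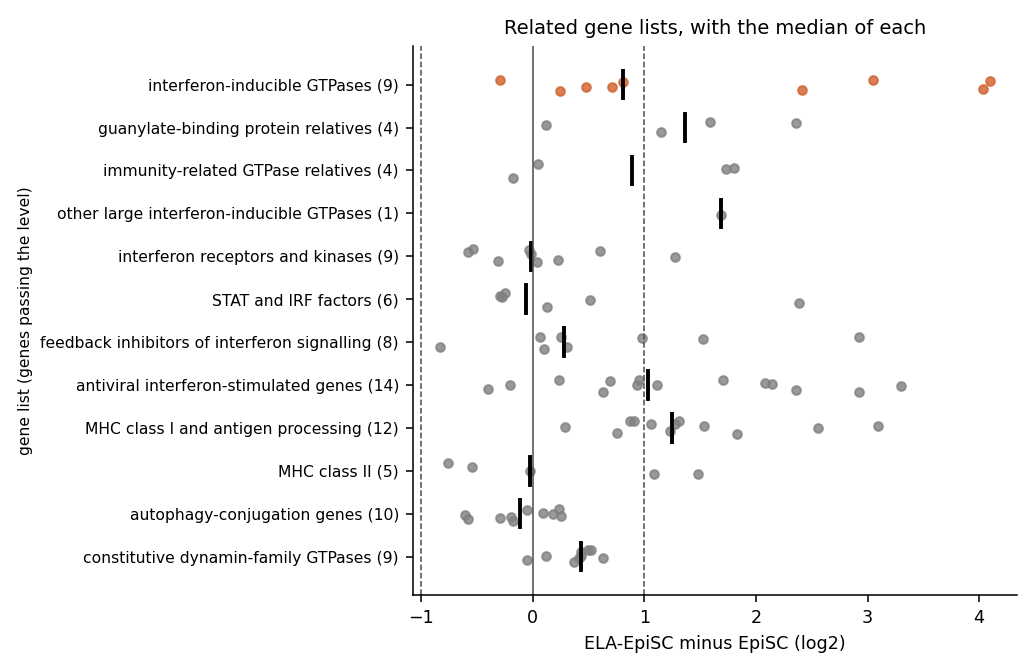
Log2 difference, ELA-EpiSC minus EpiSC, of each gene that passed the level in the family (orange) and in 11 related lists (grey), with the number of genes in brackets and a black bar at the median. The medians of the antiviral (1.03) and class I (1.25) lists lie above 1, and that of the autophagy conjugation list lies at -0.11.

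Genes of the lists for other cell types were measured on the same arrays. In RNA from whole cultures, more cells of a type and more RNA per cell cannot be told apart. Sums below are of normalized intensity on the linear scale, over 1 probe per gene. Of 11 macrophage markers, 8 were detected in EpiSC and 7 in ELA-EpiSC, and the list summed to 9170 and 12054. Itgam, with the highest signal of the list, had a difference of 0.37 by its brightest detected probe and -0.385 by its lowest probe. Csf1r likewise had 0.03 and -0.36. Aif1 had a difference of 2.64, Cd68 of 0.52, Cd14 of 0.37, Ptprc of 0.12, Emr1 of -0.16 and Tyrobp of -0.21. Lyz2, Fcgr1 and Spi1 were not well above background in EpiSC or in ELA-EpiSC. Of 11 fibroblast markers, 8 were detected in EpiSC and 9 in ELA-EpiSC, with sums of 4311 and 7419. Differences were 3.72 for Col1a1, 1.77 for Pdgfra and 1.57 for S100a4, beside 0.08 for Col1a2, 0.05 for Thy1 and -0.33 for Dcn, and Lum and Fap were not well above background in EpiSC or in ELA-EpiSC. Lymphocyte markers, of 10 with 7 and 6 detected, summed to 6148 and 6484, and endothelial markers, of 7 with 5 detected on each array, to 9220 and 5618. Among the endothelial markers, Vwf had differences of -3.75 by its brighter probe and -2.52 by its other, and Kdr of -0.43 and 1.49. All 9 pluripotency and epiblast markers were detected on both arrays and summed to 328249 and 300391. Their differences ran from -0.84 for Dnmt3b to 1.19 for Tdgf1, with 0.19 for Pou5f1, which codes for Oct4. Of the 9 differences, 7 were above 0, and the median was 0.19. Dnmt3b, at 17.07 in EpiSC and 16.24 in ELA-EpiSC, had the highest signal in these sums. The part of these other markers in the differences of the GTPases was not tested.

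The scale of the arrays bears on the smaller differences. RNA spiked into both samples showed a mean difference of -0.41 over the 8 of its 10 probes that were detected. Setting these probes equal moved the median of all genes to 0.62, raised every member, and brought 7 of the 9 members that passed the level past 1, beside 20.2% of all genes. Gbp2 was then 4.74, Gbp2b 4.69 and Gbp3 3.66. Gbp2, Gbp2b, Gbp3, Gbp7 and Irgm1 passed a difference of 1 under each of 13 ways of computing the values, and Gbp5 and Gbp6 under none. The second Gbp6 probe taken alone was at 1.17 after spike-in scaling and at 1.59 in the deposited values.

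**Figure D5:**
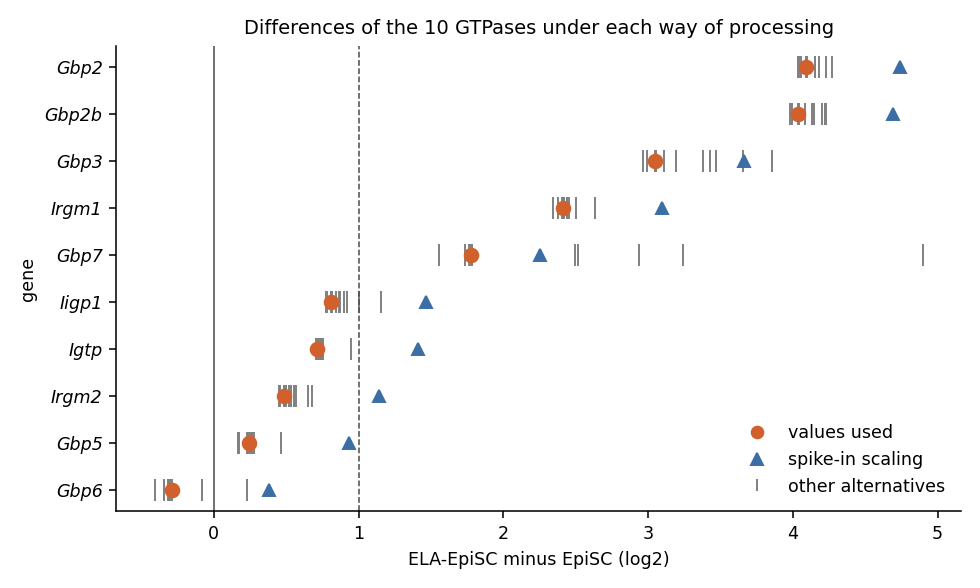
Log2 difference, ELA-EpiSC minus EpiSC, of each of the 10 genes as reported (orange circles), after spike-in scaling (blue triangles) and under the other alternatives (grey bars). Gbp2, Gbp2b, Gbp3, Irgm1 and Gbp7 lie to the right of the dashed line at 1 throughout, and Gbp6 lies on both sides of 0.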

How the data were processed

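The authors hybridized Cy3-labelled RNA (50 ng per the labels) to 2 Agilent arrays and deposited scanner files of spot intensity, not normalized, made with Feature Extraction 10.7.3.1 per the file headers. They also deposited a table of log2 values, by their methods after background correction and quantile normalization, used here as an alternative.

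Mean spot signal was corrected for local background by normexp (offset 50, limma 3.58.1, R 4.3.3), control and marked spots were left out, arrays were quantile normalized and spots of 1 probe averaged. Detection of a probe required the scanner's above-background flag on 0.5 or more of its spots (65.8% of probes in EpiSC, 65.0% in ELA-EpiSC). The offset compresses differences of dim genes. With 1 array per group there was no test, and the number of arrays limits the precision. The code was tested on simulated data. Probes were compared with blastn 2.17.0. Alternatives concerned background, scaling, spots, probe choice, filters, thresholds and promoter window. The named genes were all members with every probe, of each related list at most the 4 past 1 with the largest difference, and fixed interferon signalling genes, 1 of which is not reported here; others are named for their place, their level or as markers. The members and lists were chosen with earlier results of these data known. Titles were used for the groups, although the source fields name an Argonaute immunoprecipitate for EpiSC and total RNA for ELA-EpiSC.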

Additional observations from a re-analysis of the deposited data

How the results depend on the processing

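No paired analysis was possible because only 1 array represents EpiSC and only 1 ELA-EpiSC. The 4 member genes higher by at least 1 became 7 after spike-in scaling, and the 26 genes of the related lists that passed 1 became 42. The share of all genes higher by at least 1 went from 4.54% to 20.2% with the same scaling. The median difference of the members, 0.81, was 0.92 with processed signals scaled to the 75th percentile, 1.00 after median scaling, 1.47 after spike-in scaling, 1.15 with all detected probes averaged and 1.29 without a filter. Gbp6 turned to 0.38 after spike-in scaling and to 0.23 with all detected probes averaged. Gbp7 ran from 1.56 to 4.90, the widest range of the 10 genes, and Igtp from 0.70 to 1.41. With a threshold of 2.5, 3 member genes passed (0.402% of all genes), with a minimum mean level of 9 (log2) also 3 (4.16%), and at 1.5-fold 6 (11.1%). The other counts of member probes kept within 1.5 times of 6, and the 8 genes with a response element were 8 with only the bases before the start. Motifs and identity of the proteins were not run. Dim readings, with 2 of 16 probes not well above background on 1 array, limit the sizes for Gbp7 and Gbp6.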
